A study of Mus musculus with 6 samples.

Results

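The tumor necrosis factor (TNF) superfamily is a set of ligands, most of them membrane-bound trimers, and of the receptors that they cluster on the surface of other cells. Members were taken by symbol from the mouse gene counts: protein-coding genes named Tnfsf or Tnfrsf with a number, together with Tnf, Lta, Ltb, Ltbr, Fas, Fasl, Cd40, Cd40lg, Cd27 and Cd70. The rule gave 41 of the 56884 mouse genes in the table, of which 17 are ligands and 24 receptors, and 29 of them (9 ligands and 20 receptors) had a total of at least 10 counts over the 6 libraries and were tested among 18018 mouse genes.

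Receptors with a death domain, such as TNF receptor 1 (Tnfrsf1a) and Fas, recruit adaptors that can activate caspases, while the other receptors bind TRAF proteins and activate NF-κB through its classical or its alternative branch. In the liver, TNF and lymphotoxin are known from inflammation, regeneration and hepatitis, and Fas from the death of hepatocytes. Several members, among them Tnfrsf9, Tnfrsf4, Cd27 and their ligands, are best known as costimulators of lymphocytes.

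The libraries came from an orthotopic xenograft model of hepatocellular carcinoma (HCC), in which human QGY-7703 cells, an HCC line, had been placed in the liver of athymic male mice, 6 weeks old, of strain BALB/c (nu/nu). After 1 week the mice received AAV8-siControl or AAV8-siAATF by tail vein, and the livers were taken 3 weeks later. AATF is the apoptosis-antagonizing transcription factor, and the siRNA was directed at mouse Aatf. Of the 6 libraries, 3 were labelled siControl (genotype WT) and 3 siAATF (genotype KD). Both groups therefore carried the human tumor, an AAV8 vector and the nu/nu background, which lacks a thymus and so most mature T cells. The siRNA was under the TBG promoter, which is active in hepatocytes. The labels number the replicates and do not say whether each came from another mouse, so that the p-values measure the spread between these libraries, which may be technical.

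The libraries of the 2 groups held very different amounts of mouse RNA. Mouse genes took 0.778% to 1.93% of all gene counts in siControl (213022 to 913584 mouse counts) and 97.9% to 99.0% in the libraries labelled siAATF (11835898 to 42563694). A gene with 3 counts therefore stood at 3.28 to 14.1 counts per 1000000 mouse counts (CPM) in siControl and at 0.0705 to 0.253 in siAATF. The CPM of single genes below are scaled by TMM, the trimmed mean of M-values. The targeted gene was not lower: Aatf had 12, 1 and 23 counts in siControl against 384, 109 and 340 in siAATF, a log2 fold change of 0.93 (SE 0.47, adjusted p = 0.152, edgeR), so the group is called by its label. At an adjusted p under 0.05 (edgeR), 14.4% of all mouse genes tested were called lower and 17.6% higher. Hepatocyte markers (6 of 6 called higher, median log2 fold change 4.58) summed to 2826 to 6776 CPM in siControl against 31239 to 97622 in siAATF. Fibroblast markers (6 of 7 called lower, median -4.75) summed to 8439 to 12436 CPM against 333 to 523, macrophage markers (5 of 6 lower, median -4.17) to 1097 to 2852 against 76.4 to 145, and neutrophil markers (4 of 5 lower, median -4.47) to 87.5 to 1824 against 2.22 to 128. The human share, the tissue composition and the group label cannot be told apart from these counts alone, nor can a difference in how tumor and surrounding liver were sampled or an exchange of labels, so that the sign of each fold change holds for the labels as given. Their part in the results on the family was not tested.

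Most TNF superfamily genes that could be tested were lower in siAATF when set against the other mouse RNA. At an adjusted p under 0.05 (edgeR's quasi-likelihood test, Benjamini-Hochberg over all 18018 genes), 7 of 9 ligands and 10 of 20 receptors were called lower. Among all genes tested, 14.4% were called lower and 17.6% higher, 32% in all. No member was called higher by edgeR, DESeq2 or limma-voom, and at an unadjusted p under 0.05 only Ltbr was higher (edgeR). The median log2 fold change was -5.13 over the ligands and -2.53 over the receptors, where the median of all genes tested was 0.50, and the family's median of -3.11 differed from it by -3.61. With library size alone, which moved the median of all genes to -1.30, 9 ligands and 15 receptors were called lower, and so were 40.4% of all genes. With the study's own criteria (a |log2 fold change| of 2 or more with p under 0.05 before adjustment), 7 ligands and 12 receptors were lower, and 13.1% of all genes were. In 19 members every siControl library lay above every siAATF library, as in 18.1% of all genes tested. These counts describe the members that passed the minimum and support nothing by themselves, because 6 members (Tnf, Tnfsf8, Tnfsf9, Tnfsf15, Tnfrsf9 and Tnfrsf23) reached 10 counts through the siControl libraries alone, and 3 (Cd27, Tnfrsf4 and Tnfrsf25) through siAATF alone.

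**Figure D1:**
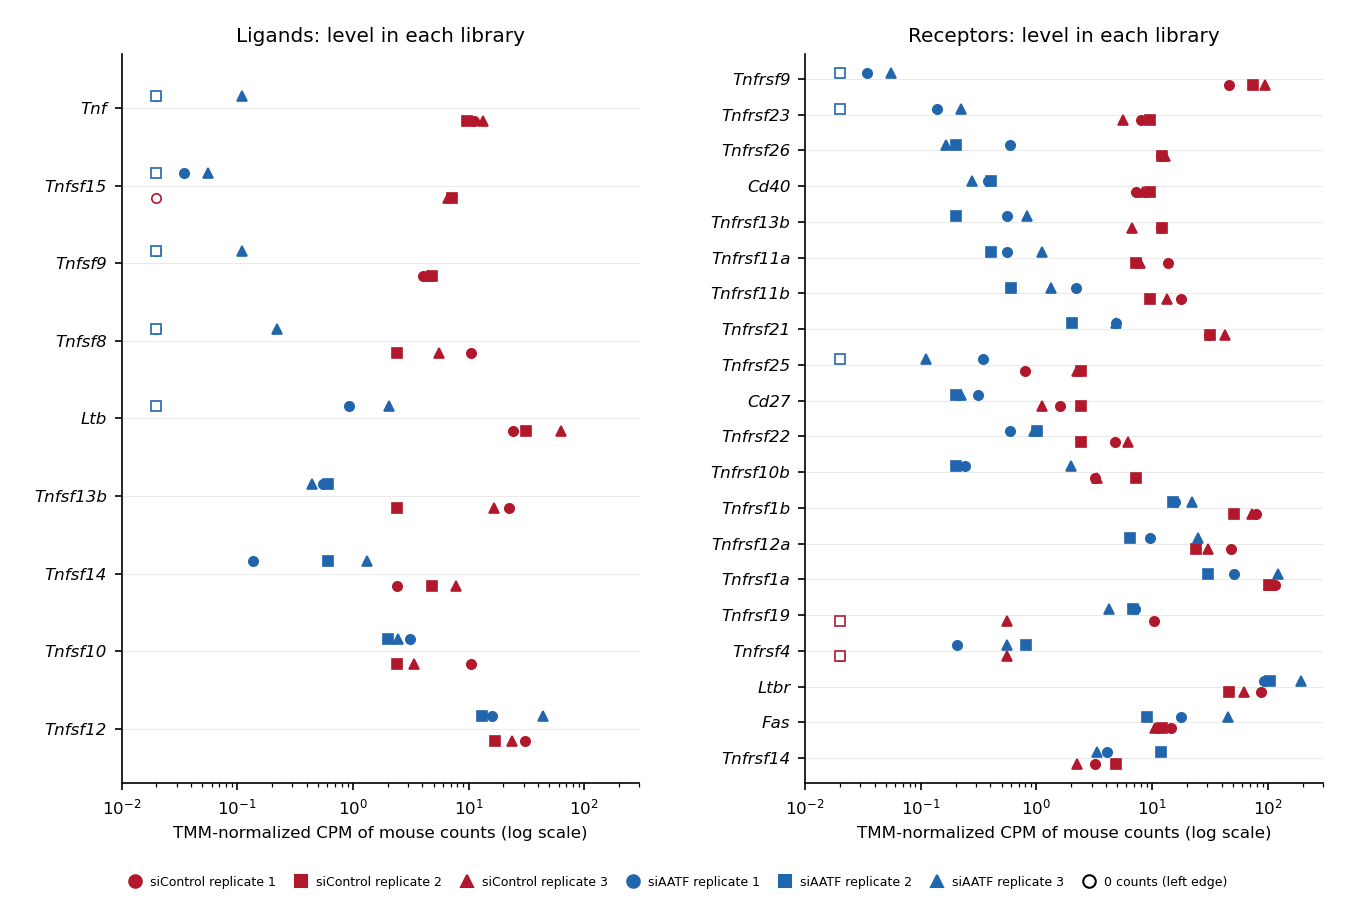
TMM-normalized CPM of mouse counts (x axis, log scale) of the 9 ligands and 20 receptors tested (y axis), 1 symbol per library, with libraries of 0 counts as open symbols at the left edge. For Tnfrsf9 the siControl libraries lay at 46.6 to 93.7 and the siAATF libraries at 0.0555 or less, while for Fas the groups overlapped.

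Promoter sequence is shown for Tnfrsf9, the member with the largest fitted fall, for Ltb and Tnf, the ligands of the lymphotoxin locus that were called lower, and, as a contrast, for Fas, which was not called. RefSeq windows from GRCm38.p6 were located in GRCm39, the build of the counts, by exact match. Each window ended at a RefSeq transcription start, except that of Ltb, which was cut short before the first exon of the gene in the deposited table, and is written 5′ to 3′ on the strand of the gene: chr4:151012206-151012455 for Tnfrsf9 (forward strand, the window of its second RefSeq start), chr17:35413233-35413414 for Ltb (forward, 182 bases), chr17:35420984-35421233 for Tnf (reverse) and chr19:34267809-34268058 for Fas (forward). Capitals mark matches to the NF-κB consensus in Tnfrsf9 and Ltb, to the AP-1 site TGANTCA in Tnfrsf9 and Fas, and to the TATA box TATAAA in Tnf. The window of the other Tnfrsf9 start held no match to these motifs and for that reason is not printed.
Tnfrsf9: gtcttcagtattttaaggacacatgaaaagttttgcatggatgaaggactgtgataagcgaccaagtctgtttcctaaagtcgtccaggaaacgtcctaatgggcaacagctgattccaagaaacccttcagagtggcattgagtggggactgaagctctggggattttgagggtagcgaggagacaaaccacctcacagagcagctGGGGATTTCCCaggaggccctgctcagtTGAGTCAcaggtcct
Ltb: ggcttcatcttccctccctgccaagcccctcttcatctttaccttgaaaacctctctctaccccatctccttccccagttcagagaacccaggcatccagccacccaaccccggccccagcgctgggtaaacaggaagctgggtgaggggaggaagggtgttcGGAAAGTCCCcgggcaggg
Tnf: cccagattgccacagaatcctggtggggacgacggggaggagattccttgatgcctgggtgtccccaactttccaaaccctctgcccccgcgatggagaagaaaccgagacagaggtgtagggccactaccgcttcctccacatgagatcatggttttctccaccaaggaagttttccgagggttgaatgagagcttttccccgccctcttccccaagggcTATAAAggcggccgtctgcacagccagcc
Fas: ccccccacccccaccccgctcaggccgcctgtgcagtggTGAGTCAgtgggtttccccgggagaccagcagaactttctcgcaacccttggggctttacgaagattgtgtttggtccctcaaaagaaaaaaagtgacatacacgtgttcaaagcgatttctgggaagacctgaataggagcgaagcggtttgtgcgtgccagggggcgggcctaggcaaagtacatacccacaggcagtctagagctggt

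Motifs were searched on both strands of the 250 bases before each start, in 35 windows of the 31 members found in the RefSeq table. The NF-κB consensus matched in 3 members (Ltb, Tnfrsf8 and Tnfrsf9) and in 3.90% of all 32851 windows. The AP-1 site matched in 6 members (Fas, Tnfrsf8, Tnfrsf9, Tnfsf13, Tnfsf13b and Tnfsf14) and in 6.75% of all windows. The TATA box matched in 6 members (Lta, Tnf, Tnfrsf17, Tnfrsf23, Tnfsf11 and Tnfsf18) and in 12.4% of all windows. Of the members with the NF-κB consensus, Ltb and Tnfrsf9 were called lower and Tnfrsf8 had no counts. Of those with the AP-1 site, Tnfrsf9, Tnfsf13b and Tnfsf14 were called lower and Fas was not. A match is a description of the letters and says nothing of binding.

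Among the ligands, the inflammatory cytokine Tnf (ENSMUSG00000024401, GRCm39 chr17:35418357-35420983) was close to undetected in siAATF. It had 14, 4 and 24 counts in siControl against 0, 0 and 2 in siAATF, which is 11.2, 9.66 and 13.4 CPM against 0, 0 and 0.111. The siControl libraries lay close together although their depths differed, and the groups did not overlap. The log2 fold change was -7.76 (SE 0.93, adjusted p = 9.55e-05), and because siAATF held only 2 counts the fold is better read from the ratio of summed counts per library size, 0.00316 (95% exact interval 0.000371 to 0.0122, counting error only). The fitted value was -6.77 without siAATF replicate 1 and -9.39 without siAATF replicate 3, and the call was unchanged.

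Lymphotoxin beta (Ltb, ENSMUSG00000024399, chr17:35413415-35415296), which forms a heterotrimer with lymphotoxin alpha at the surface of lymphocytes and signals through Ltbr, was the most counted of the called ligands. Its counts were 30, 13 and 113 in siControl against 27, 0 and 37 in siAATF, or 24.1, 31.4 and 63.0 CPM against 0.932, 0 and 2.05. All siControl libraries were above all siAATF libraries, with a log2 fold change of -5.13 (SE 0.70, adjusted p = 0.000201), or -5.85 without siAATF replicate 3. Ltb and Tnf are neighbors on chromosome 17, with 3061 bases between them, and Lta follows 1158 bases beyond Tnf. Lta itself had 2 counts in all, 1 in each group, and was not tested.

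The ligands Tnfsf8 (CD30 ligand), Tnfsf9 (the ligand of Tnfrsf9) and Tnfsf15 (a ligand of Tnfrsf25) were all called lower from few counts. Tnfsf9 had 5, 2 and 8 counts in siControl against 0, 0 and 2 in siAATF (log2 fold change -6.33, SE 1.20, adjusted p = 0.00155), and its ratio of summed counts was 0.00886 (0.000983 to 0.0381). Tnfsf8 had 13, 1 and 10 against 0, 0 and 4 (-6.09, SE 1.18, adjusted p = 0.00178). Tnfsf15 had 0, 3 and 12 against 1, 0 and 1 (-6.42, SE 1.36, adjusted p = 0.00323). Without siControl replicate 3, Tnfsf9 and Tnfsf15 had fewer than 10 counts and were no longer tested. Where these genes were still tested, single libraries moved the values without ending the call. Tnfsf9 was at -5.42 without siAATF replicate 1 and -7.98 without siAATF replicate 3. Tnfsf8 was at -5.18 and -8.55 without the same libraries, and Tnfsf15 at -7.15 without siControl replicate 1. Tnfsf15 was absent from siControl replicate 1, so its groups overlapped, while those of Tnfsf8 and Tnfsf9 did not. Gm11110 overlaps Tnfsf9 on the other strand, and reads of both cannot be told apart without strand.

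B cell activating factor (Tnfsf13b), a survival factor for B cells made largely by myeloid cells, stood at 22.5, 2.42 and 16.7 CPM in siControl against 0.552, 0.605 and 0.444 in siAATF (log2 fold change -4.82, SE 0.68, adjusted p = 0.000233). The counts were 28, 1 and 30 in siControl against 16, 3 and 8 in siAATF, and the groups did not overlap. The low value of siControl replicate 2, the shallowest library, rests on 1 count, so nothing is read from the spread among the siControl libraries. The macrophage gene Cd68 stood at 429, 111 and 153 CPM in siControl against 3.93, 3.43 and 11.8 in siAATF. In bulk tissue, fewer cells of a type and less RNA per cell cannot be told apart, and the part of cell numbers in the difference of Tnfsf13b was not tested.

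LIGHT (Tnfsf14), a second ligand of Ltbr and of Tnfrsf14, was called lower by a small margin. Its counts were 3, 2 and 14 in siControl against 4, 3 and 24 in siAATF, or 2.41, 4.83 and 7.81 CPM against 0.138, 0.605 and 1.33. The groups did not overlap and the log2 fold change was -2.88 (SE 0.95, adjusted p = 0.0350), but the call was lost without siControl replicate 2 (-2.91, adjusted p = 0.0681), siControl replicate 3 (-2.27, 0.246), siAATF replicate 1 (-2.29, 0.0822) or siAATF replicate 2 (-2.81, 0.0579). Without siAATF replicate 3 the value was -4.05. Without siControl replicate 3, the number of ligands called lower went from 7 to 4, since Tnfsf9 and Tnfsf15 then had fewer than 10 counts.

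The other tested ligands, TRAIL (Tnfsf10), which binds death receptors, and TWEAK (Tnfsf12), a broadly expressed ligand of Tnfrsf12a, were not called. Tnfsf10 stood at 10.4, 2.42 and 3.35 CPM in siControl against 3.14, 2.02 and 2.44 in siAATF (log2 fold change -1.16, SE 0.67, adjusted p = 0.212). It was called lower with library size alone (-2.88), and was at -0.26 (adjusted p = 0.840) without siControl replicate 1. Tnfsf12 stood at 30.5, 16.9 and 24.0 CPM against 15.9, 13.1 and 44.2, with a log2 fold change of 0.00 (SE 0.49, adjusted p = 0.998), whose sign turned under several normalizations, down to -1.81 with library size alone, where it was called lower. In both genes the groups overlapped. Tnfsf12 shares exons with the readthrough gene Tnfsfm13, which had 14 counts against 1411 for Tnfsf12.

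Of the 12 members under the minimum, 8 were ligands. Cd70 and Cd40lg, with the receptors Tnfrsf8 and Tnfrsf17, had no count in any library. Tnfsf13 had a total of 7 counts, Tnfsf11 5 (all in siControl replicate 3), Tnfsf18 5, and Tnfsf4, Fasl and Lta 2 each, while the receptors Tnfrsf18 and Tnfrsf13c had 9 and 7. The members just above the minimum were Tnfsf9 and Tnfsf15 with 17 counts, Tnfrsf25 with 18, Cd27 with 19 and Tnfrsf4 with 21.

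**Figure D2:**
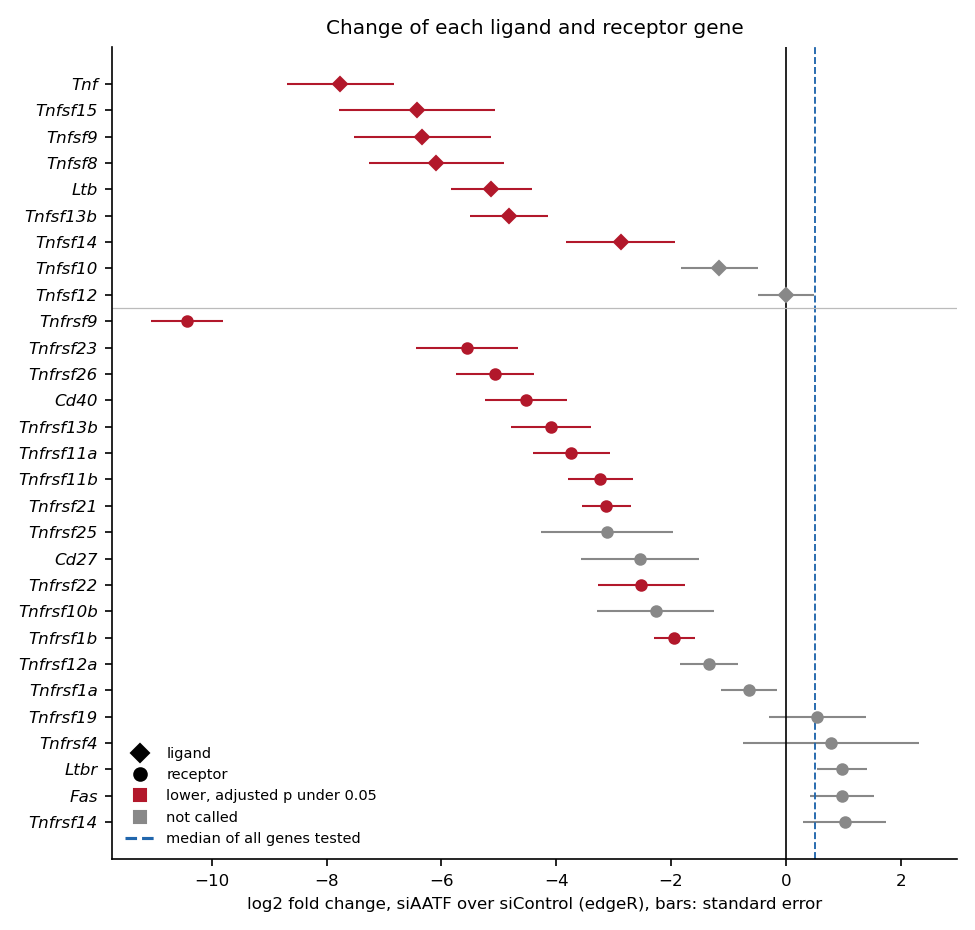
Log2 fold change of siAATF over siControl (x axis, edgeR, TMM) of each tested ligand and receptor (y axis), with its standard error as a bar, red where the adjusted p was under 0.05, and the median of all genes tested (0.50) as a dashed line. Tnf (-7.76) and Tnfrsf9 (-10.44) lay lowest of the ligands and receptors, and the genes fitted above 0 (Tnfrsf14, Fas, Ltbr, Tnfrsf4, Tnfrsf19 and Tnfsf12) were not called and all turned below 0 with library size alone.

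Of the 5 tested receptors with a death domain, 1 was called lower, beside 14.4% of all genes tested. This was Tnfrsf21 (death receptor 6), known from neurons and T cells: its CPM were 31.3, 31.4 and 43.0 in siControl against 4.87, 2.02 and 4.88 in siAATF, with no overlap (log2 fold change -3.13, SE 0.43, adjusted p = 0.000197). Tnfrsf1a (ENSMUSG00000030341, chr6:125326686-125339447), the receptor for TNF on most cell types, was not called, at 116, 101 and 103 CPM in siControl against 50.7, 30.7 and 123 in siAATF (-0.65, SE 0.49, adjusted p = 0.331). Its siControl libraries were nearly equal, and siAATF replicate 3 lay above them all while the other two lay below; without that replicate Tnfrsf1a was called lower (-1.33, adjusted p = 0.0292). It was also called lower with every library thinned to 213022 mouse counts, the smallest total (-1.84, adjusted p = 0.00511), and with library size alone (-2.45, 0.00160).

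Fas (ENSMUSG00000024778, chr19:34268066-34305172), the receptor of Fas ligand, had 18, 5 and 19 counts in siControl against 512, 45 and 824 in siAATF, or 14.5, 12.1 and 10.6 CPM against 17.7, 9.08 and 45.7. The groups overlapped and Fas was not called (log2 fold change 0.98, SE 0.56, adjusted p = 0.206), and its fitted value was above 0 except with library size alone (-0.82). Without siAATF replicate 2 it was called higher (1.42, adjusted p = 0.0296), and without siAATF replicate 3 the value fell to 0.21 (adjusted p = 0.774). Its ligand Fasl had 2 counts, both in siControl replicate 3.

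The remaining death-domain receptors had few counts. Tnfrsf10b, the mouse receptor for TRAIL, had 4, 3 and 6 counts in siControl against 7, 1 and 36 in siAATF (log2 fold change -2.27, SE 1.02, adjusted p = 0.109). It was called lower by DESeq2 (-2.50, adjusted p = 0.0419), by limma-voom (-3.02, 0.0231), with the replicate number as a block (-2.62, 0.0215) and without siAATF replicate 3 (-4.03, 0.0108). Tnfrsf25, a receptor for Tnfsf15, had 1, 1 and 4 counts against 10, 0 and 2 (-3.11, SE 1.15, adjusted p = 0.0558), and was called lower by DESeq2 (-3.40, 0.0367), by limma-voom (-3.47, 0.00810) and with upper quartile factors (-3.44, 0.0439). Both were also called lower with library size alone (-4.11 and -4.76). In both genes every siControl library lay above every siAATF library in CPM.

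The largest fitted difference in the family was that of Tnfrsf9 (4-1BB, ENSMUSG00000028965, chr4:151004612-151030559), a TRAF-binding costimulatory receptor induced on activated T and NK cells. It had 58, 31 and 168 counts in siControl against 1, 0 and 1 in siAATF, although the siAATF libraries held many times more mouse counts. This corresponds to 46.6, 74.9 and 93.7 CPM against 0.0345, 0 and 0.0555, with no overlap. The log2 fold change was -10.44 (SE 0.63, adjusted p = 4.46e-06), and the ratio of summed counts was 0.000517 (6.23e-05 to 0.00189). Tnfrsf9 was called lower under each of the 15 alternatives that retained it, with log2 fold changes of -12.15 to -7.22.

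The counts of Tnfrsf9 in siControl are given beside those of lymphocyte markers. Cd3d, a subunit of the T cell receptor complex, had 2, 1 and 3 counts in siControl, and Cd3e had 0, 0 and 2. Ncr1, a marker of NK cells, had 1, 0 and 0. Better counted there were Cd8a (1, 4 and 13), Cd3g (1, 0 and 17), Cd4 (7, 2 and 8) and Gzma (4, 3 and 10). Tnfrsf9 had more counts than each of these in the same libraries, but counts not set per gene length do not order the levels. The summed CPM of the 6 T cell markers were 10.4 to 26.8 in siControl against 1.44 to 11.3 in siAATF (3 of 4 tested called lower, median -3.81), with Cd3e at 0 in siAATF. NK markers summed to 4.82 to 14.5 CPM against 0.403 to 2.00 (2 of 3 lower, median -2.90). Among all genes tested, 14.4% were called lower. Of the 4 B cell markers none was called by edgeR, nor at an unadjusted p under 0.05 (median -1.30). Which cells held the Tnfrsf9 RNA was not tested.

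Of the 11 tested receptors without a death domain, 5 were called lower (Tnfrsf9, Tnfrsf1b, Cd40, Tnfrsf13b and Tnfrsf11a, of which Tnfrsf9 reached 10 counts through siControl alone) and 6 were not called, beside 14.4% of all genes tested called lower. Tnfrsf1b (ENSMUSG00000028599, chr4:144940033-144973440), TNF receptor 2, which is found mainly on immune and endothelial cells, stood at 78.7, 50.7 and 72.5 CPM in siControl against 15.8, 15.1 and 22.1 in siAATF (log2 fold change -1.94, SE 0.36, adjusted p = 0.00143), without overlap. Cd40, the receptor of antigen-presenting cells for T cell help, stood at 7.23, 9.66 and 8.37 CPM against 0.380, 0.403 and 0.277 (-4.53, SE 0.71, adjusted p = 0.000476). Both groups were tight in Cd40, from 28 counts in siControl against 18 in siAATF.

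Tnfrsf13b (TACI), a receptor for Tnfsf13b on B cells, stood at 12.0, 12.1 and 6.69 CPM in siControl against 0.552, 0.202 and 0.832 in siAATF (log2 fold change -4.09, SE 0.70, adjusted p = 0.000836). Tnfrsf11a (RANK), the receptor of osteoclast precursors and dendritic cells for Tnfsf11, stood at 13.6, 7.25 and 7.81 CPM against 0.552, 0.403 and 1.11 (-3.74, SE 0.67, adjusted p = 0.00111). Neither gene's groups overlapped. After the same thinning, Tnfrsf11a (-1.92, adjusted p = 0.266) was no longer called.

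Ltbr (ENSMUSG00000030339, chr6:125283534-125290848), the lymphotoxin beta receptor, known from stromal cells and hepatocytes and a trigger of alternative NF-κB signaling, was the most counted member, with 109, 19 and 111 counts in siControl against 2681, 513 and 3456 in siAATF. Its CPM were 87.5, 45.9 and 61.9 against 92.5, 103 and 192, and Ltbr was the 1 member whose siAATF libraries all lay above its siControl libraries, as 34.5% of all genes tested did. It was not called (log2 fold change 0.97, SE 0.43, adjusted p = 0.108), and the fitted value turned to -0.85 with library size alone. Without siAATF replicate 2 it was called higher (1.16, adjusted p = 0.0402). On chromosome 6 Ltbr stands between Cd27 and Tnfrsf1a, 69.6 kb and 35.8 kb away, and these neighbors were fitted at -2.54 and -0.65.

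Tnfrsf12a (Fn14), the receptor for TWEAK that injury induces in epithelial and stromal cells, was just over the threshold. Its CPM were 48.2, 24.2 and 30.1 in siControl against 9.49, 6.45 and 25.0 in siAATF, so that siAATF replicate 3 lay within the siControl range (log2 fold change -1.34, SE 0.50, adjusted p = 0.0611). It was called lower under 11 of 16 alternatives, among them DESeq2 (-1.47, adjusted p = 0.0269), limma-voom (-1.54, 0.0490) and without siAATF replicate 3 (-2.03, 0.00118).

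Of the remaining receptors, Cd27, a costimulator of T cells, had 2, 1 and 2 counts in siControl against 9, 1 and 4 in siAATF (log2 fold change -2.54, SE 1.03, adjusted p = 0.0778), and was called lower by limma-voom (-2.78, 0.0116), with filterByExpr (-2.63, 0.0185) and with library size alone (-4.25). Tnfrsf14 (HVEM), a receptor for LIGHT, had 4, 2 and 4 against 118, 59 and 60 (1.02, SE 0.73, adjusted p = 0.303). Its value was -0.90 with library size alone and 0.34 without siAATF replicate 2. Tnfrsf19 (TROY), a receptor known from skin and stem cells, had 13, 0 and 1 against 205, 34 and 77 (0.55, SE 0.85, adjusted p = 0.645; -1.19 with library size alone). The siControl counts of Tnfrsf19 came almost entirely from replicate 1, without which it was called higher (3.74, adjusted p = 0.0285), and without replicate 3 the fitted value was -0.12. Tnfrsf4 (OX40), another T cell costimulator, had 1 count in siControl against 20 in siAATF, a ratio per library size of 1.33 (0.213 to 55.1) that tells no direction.

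All 4 tested decoy and truncated receptors, which bind ligands of the family or resemble receptors that do, without passing on a death signal, were called lower, beside 14.4% of all genes tested. Of these, Tnfrsf23 reached 10 counts through siControl alone. Osteoprotegerin (Tnfrsf11b), the secreted decoy for Tnfsf11 and TRAIL, stood at 17.7, 9.66 and 13.4 CPM in siControl against 2.21, 0.605 and 1.33 in siAATF (log2 fold change -3.23, SE 0.57, adjusted p = 0.00102), and was not called after thinning (-2.67, adjusted p = 0.0755). Tnfrsf26, Tnfrsf22 and Tnfrsf23 lie next to each other on chromosome 7, with 6084 and 17953 bases between them. Tnfrsf26 stood at 12.0, 12.1 and 12.8 CPM against 0.587, 0.202 and 0.166 (-5.06, SE 0.68, adjusted p = 0.000183), or -5.92 without siAATF replicate 1. Its siControl values were the most even of the cluster.

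Tnfrsf23, a decoy receptor for TRAIL, had 10, 4 and 10 counts in siControl against 4, 0 and 4 in siAATF (log2 fold change -5.56, SE 0.89, adjusted p = 0.000550). Tnfrsf22, its close relative, had 6, 1 and 11 against 17, 5 and 17 (-2.52, SE 0.75, adjusted p = 0.0225), and the call was lost without siControl replicate 1 (-2.51, 0.0614), siControl replicate 3 (-2.23, 0.145) or siAATF replicate 1 (-2.23, 0.0808). No groups overlapped in the cluster. Reads that the related Tnfrsf22 and Tnfrsf23 share may have been lost in counting, since reads with several locations were removed, and E230032D23Rik overlaps Tnfrsf26 and Tnfrsf23 on the other strand with 13 counts.

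Ligands and their receptors were then set side by side. Of 22 known pairs, 10 had both partners tested. In 3 pairs both partners were called lower: Tnf with Tnfrsf1b, Tnfsf9 with Tnfrsf9, and Tnfsf13b with Tnfrsf13b. In 5 pairs the ligand was called lower and the receptor was not: Tnf with Tnfrsf1a, Ltb with Ltbr, Tnfsf14 with Ltbr, Tnfsf14 with Tnfrsf14, and Tnfsf15 with Tnfrsf25. The pairs of Tnfsf10 with Tnfrsf10b and of Tnfsf12 with Tnfrsf12a had neither partner called. In this fit none of these 10 pairs had only its receptor called, but ligands under the minimum could not be called. Of the tested receptors of such ligands, Tnfrsf1b, Cd40, Tnfrsf11a, Tnfrsf11b and Tnfrsf13b were called lower, while Fas, Cd27 and Tnfrsf4 were not. Among all genes tested, 14.4% were called lower. Because Tnf, Tnfsf9, Tnfsf15 and Tnfrsf9 reached 10 counts through siControl alone, nothing is read from these pair counts. Tnfrsf11b and Tnfrsf23, named above as decoys for TRAIL, were not paired with Tnfsf10 in this count, and both were called lower while Tnfsf10 was not. Tnfrsf22, the relative of Tnfrsf23, was not paired either and was called lower, a call lost without some single libraries. The sorting of pairs depends on the tool: with DESeq2 and with limma-voom, Tnfrsf12a and Tnfrsf10b were called lower without their ligands Tnfsf12 and Tnfsf10, and Tnfrsf25 was called lower together with Tnfsf15.

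The make-up of the family's own counts does not depend on the normalization between libraries. Ltbr took 13.8%, 9.05% and 9.65% of the counts of all 41 members in siControl against 40.3%, 50.2% and 40.0% in siAATF, or 10.8% ± 2.59 against 43.5% ± 5.82 (SD, n = 3). Tnfrsf9 took 7.34%, 14.8% and 14.6% in siControl (12.2% ± 4.24) and 0.0150%, 0% and 0.0116% in siAATF. The 0 of 1021 counts in siAATF replicate 2 allow a share of up to 0.294% (3 counts of that total), and in siControl replicate 2, the shallowest library, the share of Ltbr has a Wilson 95% interval of 5.87% to 13.7%, both for counting error only. Fas took 2.10% ± 0.395 in siControl and 7.21% ± 2.60 in siAATF. The shares of Tnfrsf1a, 18.1% ± 1.96 and 20.9% ± 5.51, overlapped (two-sided exact permutation test, p = 0.5).

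The ligands together made up 18.4%, 17.1% and 23.7% of the family's counts in siControl against 9.07%, 7.93% and 10.7% in siAATF. For the ligands together, for Ltbr and for Fas the groups did not overlap, which gives p = 0.1 in a two-sided exact permutation test, the smallest that 3 libraries against 3 allow. Per kilobase of gene length, the mean level in siControl was 49.6 ± 3.80 CPM per kb (SD, n = 3) for Tnfrsf1a, followed by Ltb (33.5 ± 17.6), Tnfrsf12a (32.2 ± 11.8), Ltbr (30.9 ± 9.96) and Tnfrsf9 (28.9 ± 9.55), whose order among themselves lies within their spread. In siAATF it was 61.3 ± 25.8 for Ltbr, followed by Tnfrsf1a (31.6 ± 22.6), Tnfsf12 (17.0 ± 12.0), Fas (13.4 ± 10.7) and Tnfrsf12a (12.9 ± 9.39), in which neighbors from Tnfrsf1a on differ by less than the larger of their SDs, with Tnf at rank 26 and Tnfrsf9 at rank 28 of 29.

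**Figure D3:**
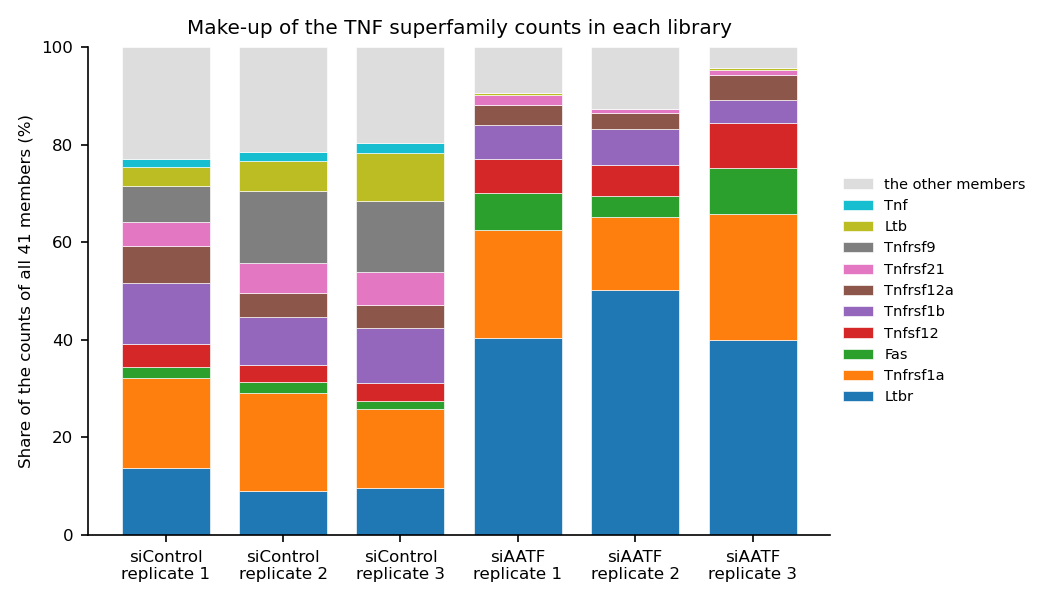
Share of the counts of all 41 members (y axis, percent, stacked to 100) taken by 10 members and by the others in each of the 6 libraries (x axis). The band of Ltbr was 10.8% ± 2.59 in siControl and 43.5% ± 5.82 in siAATF, and that of Tnfrsf9 was 12.2% ± 4.24 in siControl (SD, n = 3) and at most 0.0150% in each siAATF library.

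The order of the groups was the opposite when levels were taken over the whole tissue, as counts per 1000000 human and mouse gene counts combined (whole-tissue CPM). All members summed to 21.6, 7.67 and 21.3 in siControl against 155, 84.4 and 244 in siAATF, with means of 16.9 ± 7.96 and 161 ± 80.2 (SD, n = 3, exact permutation test p = 0.1). The ligands stood at 3.45 ± 1.92 and 15.6 ± 9.79 and the receptors at 13.4 ± 6.16 and 146 ± 70.4. Of the 29 tested members, 12 had every siAATF library above every siControl library on this scale, as did 83.9% of all mouse genes tested, and 13 overlapped.

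For Tnfrsf9, Tnf, Tnfsf9 and Tnfrsf23 every siControl library lay above every siAATF library on this scale too, as for 0.655% of all mouse genes tested. All 4 are among the members that reached 10 counts through siControl alone, so nothing is read from this count. Tnfrsf9 stood at 1.59, 1.13 and 3.11 whole-tissue CPM in siControl and at 0.0233, 0 and 0.0283 in siAATF, a ratio of the means of 113. Tnf stood at 0.383, 0.146 and 0.444 against 0, 0 and 0.0565 (ratio 17.2). The ratio was 6.33 for Tnfsf9 and 2.94 for Tnfrsf23, from 15 and 24 counts in siControl. Ltb overlapped on this scale, at 0.822, 0.475 and 2.09 against 0.628, 0 and 1.05, and Ltbr stood at 2.99, 0.694 and 2.05 against 62.4, 42.4 and 97.7.

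**Figure D4:**
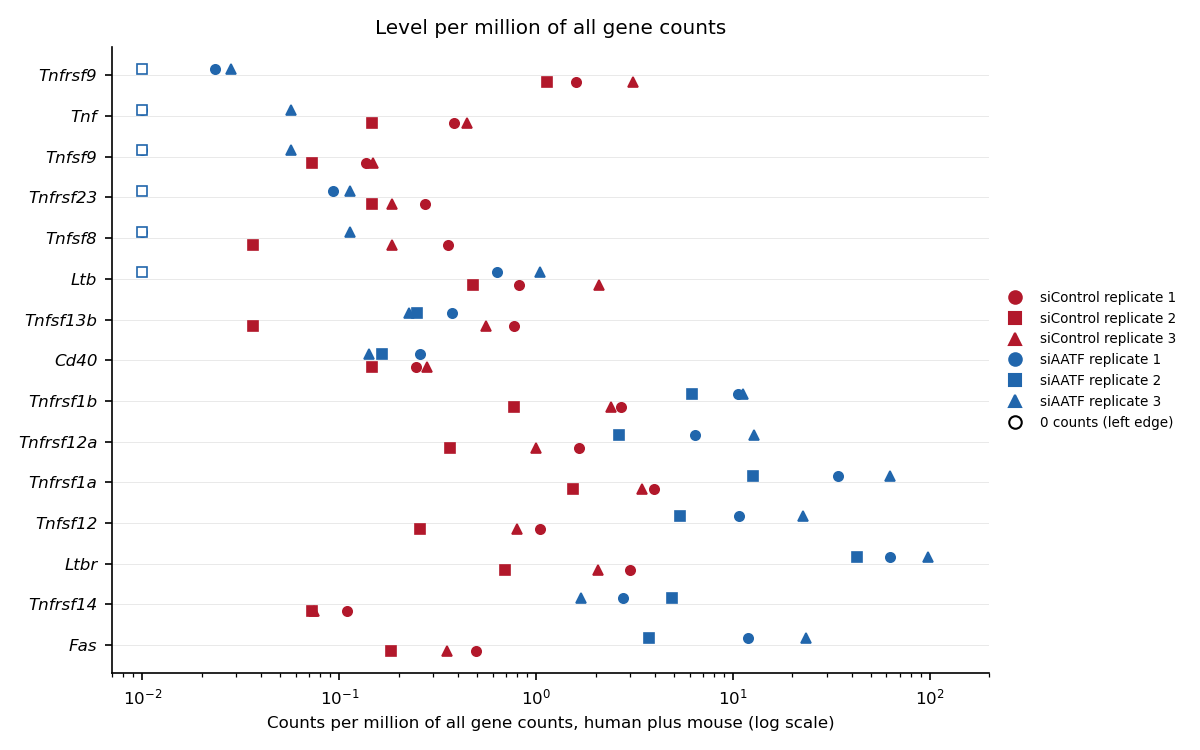
Whole-tissue CPM, the counts per 1000000 human and mouse gene counts combined (x axis, log scale), of 15 members (y axis), 1 symbol per library, with libraries of 0 counts as open symbols at the left edge. Tnfrsf9, Tnf, Tnfsf9 and Tnfrsf23 had all siControl libraries above all siAATF libraries, while Ltbr, Tnfrsf1a, Fas, Tnfsf12, Tnfrsf14, Tnfrsf12a and Tnfrsf1b had the reverse.

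The proteins that cut family members from the cell surface, and their regulators, were called lower in 5 of 5 cases (median log2 fold change -1.70), where 14.4% of all genes tested were. Adam17, the sheddase of TNF and its receptors, stood at 34.5, 16.9 and 35.1 CPM in siControl against 8.90, 8.27 and 10.4 in siAATF (-1.70, adjusted p = 0.00434). Timp3, an inhibitor of Adam17, showed the largest fall of these (-3.90, adjusted p = 0.000223), and Adam10 (-1.47), Rhbdf1 (-1.83) and Rhbdf2 (-1.39), which steer Adam17 to the surface, fell less. Of the family genes that the symbol rule did not take, Relt was called lower (-4.78, adjusted p = 0.00356) and Eda2r, Ngfr and Eda were not.

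Of 20 adaptors and kinases inside the cell, 2 were called lower and 3 higher, beside 14.4% and 17.6% of all genes tested, with a median log2 fold change of 0.09. With library size alone 15 were lower and none higher by the same test, where 40.4% of all genes were lower. The lower ones were Traf1 (-4.13, adjusted p = 0.00266) and Birc3 (-1.60, 0.00516), both also known as NF-κB target genes. The higher ones were Chuk (1.51, 0.0103), Tab2 (1.29, 0.0322) and Ikbkg (1.28, 0.0352), parts of the kinase step before NF-κB, and all of these rises were lost with library size alone. Tradd (0.03), Ripk1 (0.17) and Traf2 (0.22), which assemble on Tnfrsf1a, were not called.

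Among 13 NF-κB subunits and inhibitors, 6 were called lower and 1 higher (median -1.12), beside 14.4% and 17.6% of all genes tested, or 12 and 0 with library size alone, where 40.4% of all genes were lower. Tnfaip3 (A20), which ends NF-κB signaling, fell most, from 30.5, 38.7 and 43.5 CPM to 2.04, 0.605 and 3.77 (-4.03, adjusted p = 0.000156). The subunit genes Relb (-2.74), Nfkb1 (-1.85) and Nfkb2 (-1.27) and the inhibitors Nfkbie (-1.90) and Tnip1 (-1.82) were also lower, and Otulin, a deubiquitinase, was higher (1.27, adjusted p = 0.0272; the rise was lost with library size alone). Rela, the main subunit of the classical branch, stood at 55.4, 53.1 and 54.7 CPM in siControl against 74.3, 51.8 and 58.1 in siAATF (0.17, adjusted p = 0.733).

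Of 12 tested NF-κB target genes, 9 were called lower and 1 higher (median -5.14, or -5.00 with genes at 0 set to their bound), beside 14.4% and 17.6% of all genes tested. Of those called lower, 4 (Cxcl2, Ptgs2, Tnfaip6 and Il6) reached 10 counts through the siControl libraries alone, so that the count supports nothing by itself. The neutrophil chemokine Cxcl2 had 7, 28 and 226 counts in siControl against 3, 0 and 1 in siAATF (log2 fold change -9.57, adjusted p = 7.77e-05), and Il1b stood at 32.1, 430 and 383 CPM against 2.48, 0.807 and 5.77 (-6.46, adjusted p = 0.000368). Both genes were lowest of the siControl libraries in replicate 1, as was the neutrophil marker S100a9 (39.3, 1266 and 911 CPM), whereas Tnf was even across these libraries. Ccl2 (-6.63), Ptgs2 (-7.74) and Vcam1 (-4.08) were lower without overlap. Il6 had 3, 0 and 9 counts in siControl, so that its groups overlapped at 0 and most counts came from replicate 3. It was at 0 in all siAATF libraries, which against 3 counts over the group is a fall of at least 5.91 on the log2 scale. Sod2, the mitochondrial superoxide dismutase, was higher (1.39, adjusted p = 0.0324; the rise was lost with library size alone), and Cxcl1 (1.05, adjusted p = 0.379) was not called.

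Of 10 death effectors, 2 were called lower and 2 higher (median -0.62), beside 14.4% and 17.6% of all genes tested. The number called lower was 4 with DESeq2, 5 with the replicate number as a block and 7 with library size alone, which left 1 higher. Of all genes, 16.3%, 16.2% and 40.4% were called lower in these settings. Ripk3, the kinase of necroptosis, fell from 13.6, 26.6 and 21.8 CPM to 0.656, 1.21 and 0.666 (-4.67, adjusted p = 6.59e-05), and Bak1, a pore former of the mitochondrial path, fell by 2.00. Xiap, a caspase inhibitor, was higher (1.09, adjusted p = 0.0380; not with library size alone), and Diablo, which antagonizes such inhibitors, had 0, 0 and 1 counts against 184, 73 and 108, a ratio per library size of 24.2 (4.32 to 960.4). Casp8 (-0.95, adjusted p = 0.0828), the initiator caspase of death receptors, was not called.

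**Figure D5:**
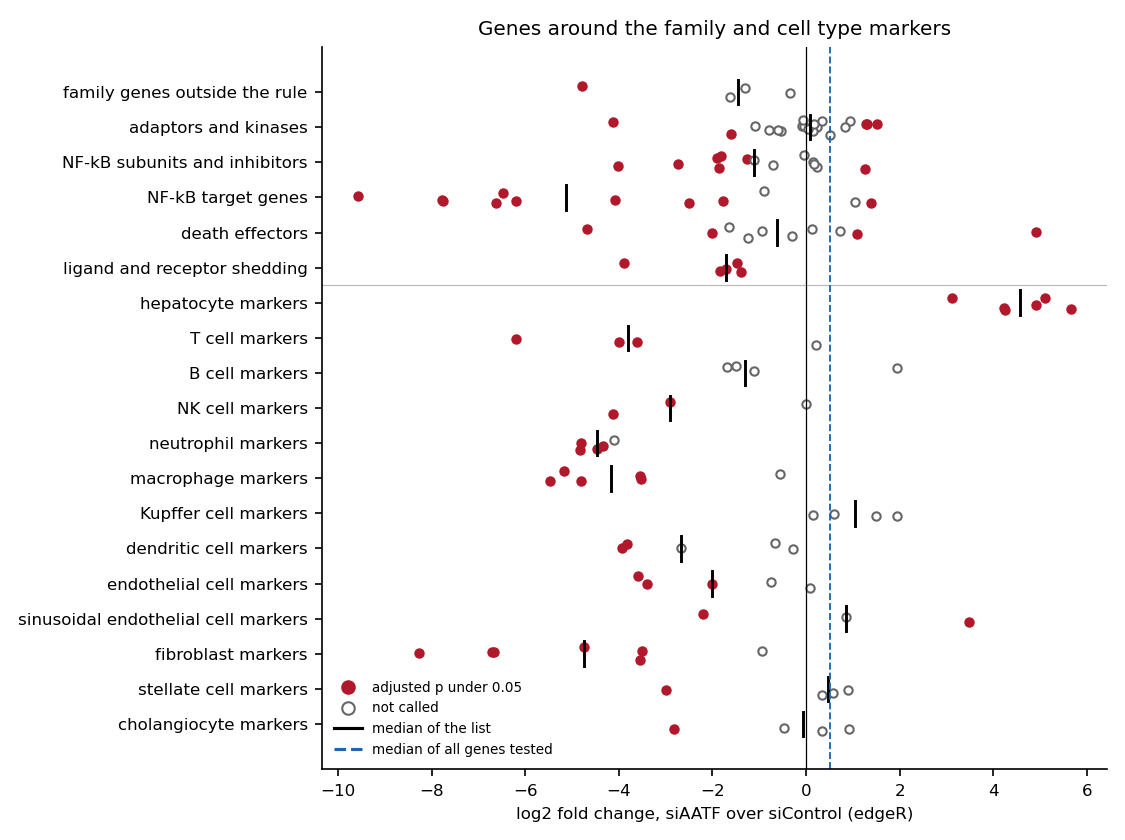
Log2 fold change of siAATF over siControl (x axis, edgeR, TMM) of the genes around the family and of cell type markers (y axis, lists), 1 point per tested gene, filled where the adjusted p was under 0.05, with the median of each list as a bar and of all genes tested (0.50) as a dashed line. NF-κB target genes (median -5.14) lay near the macrophage (-4.17), neutrophil (-4.47) and fibroblast (-4.75) markers, while adaptors and kinases (0.09) lay near 0, and with library size alone the points above 0 for adaptors, NF-κB genes and Sod2 were no longer called.

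Several cell type lists also differed between the groups, beside 14.4% of all genes tested called lower and 17.6% called higher. Besides the lists above, endothelial markers were lower in 3 of 5 genes (median -2.02) and dendritic cell markers in 2 of 5 (-2.68), while none of the 4 Kupffer cell markers was called by edgeR (median 1.05, with Clec4f and Timd4 higher at an unadjusted p under 0.05). Sinusoidal endothelial markers had 1 gene lower and 1 higher of 3, and stellate cell and cholangiocyte markers 1 lower of 4 each. The part of these cell types in the results on the family was not tested.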

How the data were processed

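RNA from the livers was made into libraries with the SMART-Seq Library Prep Kit, which does not mark strand, and sequenced with paired ends. The authors used Cutadapt for trimming and STAR for alignment to a joined human and mouse genome, removed reads of several locations or of both species, and deposited raw counts per gene from featureCounts, without normalization or filtering, in a human and a mouse table. The submitters' processing notes name STAR 2.7.11, featureCounts 2.0.1, DESeq2 1.42.0, R 4.3.2 and the build GRCm39. Whether strand was used in counting is not given in the sources used here. Mouse positions are those of the deposited table (GRCm39), and symbols came from gencode release 39 (56323 of 56884 identifiers). Of the human table only the totals were used (62753 genes, 3 broken lines left out).

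Libraries were grouped by their labels, 3 siControl and 3 siAATF. Mouse genes that reached 10 counts over all libraries were fitted in R 4.3.3 by the quasi-likelihood model of edgeR 4.0.16 (with limma 3.58.1), after TMM scaling, with the group as the only term and Benjamini-Hochberg adjustment over 18018 mouse genes. A gene was called at an adjusted p under 0.05. The test was tried on simulated counts first. CPM are per effective library size (TMM factors 1.77 to 1.97 in siControl, 0.419 to 0.681 in siAATF). Ratios of summed counts carry exact 95% intervals, and a group at 0 was set to 3 counts over the group. Reads without molecular identifiers are not independent molecules, so intervals and floors cover counting error only. Shares were compared by two-sided exact permutation tests. Depth is given by total mouse counts per library, 213022 to 42563694.

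Every member with at least 10 counts is named, with values per library for the called ones and for pairs with at least 100 counts. Of the lists around the family, the called genes with the largest rise and fall and the best counted ones are named. Some others (Tradd, Ripk1, Traf2, Rela, Cxcl1, Casp8, Cd68, Cd3d, Cd3g, Cd4, Cd8a, Gzma, Ncr1, Clec4f, Timd4, Eda2r, Ngfr and Eda, and the members under the called or counted limits whose libraries are given) were chosen after their values were seen. The members and lists were chosen with earlier results of these data known. Promoter windows are those of RefSeq (GRCm38.p6), found in GRCm39 with Python 3.11.15, and motifs were matched as letters. The alternatives were DESeq2 1.42.0, limma-voom, RLE and upper quartile factors, library size alone, 3 filters, the replicate number as a block, thinning to the smallest mouse total, and each library left out.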

Additional observations from a re-analysis of the deposited data

How the results depend on the processing

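Over 29 members and up to 16 alternatives each, 362 values kept their direction and side of the threshold, 30 passed the threshold anew, 9 lost it and 18 changed sign. With library size alone, Fas (-0.82), Ltbr (-0.85), Tnfrsf14 (-0.90), Tnfrsf19 (-1.19), Tnfrsf4 (-1.07) and Tnfsf12 (-1.81) turned below 0, as did the median of all genes (-1.30). The same setting called 3 family genes outside the symbol rule, 15 adaptors and kinases, 12 NF-κB subunits and inhibitors and 7 death effectors lower, and 0 adaptors and kinases, 0 NF-κB subunits and inhibitors, 0 NF-κB target genes and 1 death effector higher. It called 40.4% of all genes lower. Tnfsf12, fitted at 0.00, was -0.13 with DESeq2, -0.25 with limma-voom, -0.13 with RLE factors, -0.30 with the upper quartile, -0.14 with filterByExpr, -0.40 after thinning, and between -0.67 and 0.34 with 1 library left out. Tnfrsf4 was -0.84 with limma-voom, and Tnfrsf19 ran from -0.12 to 3.74 with 1 library left out.

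The ligands called lower went from 7 to 0 with at least 10 counts in every library (5 members in the fit, all of them receptors, so that no ligand could be called), 2 after thinning (14 members in the fit), and 4 to 7 with 1 library left out. Of all genes, 18.7% were called lower after thinning and 9.70% to 14.7% with 1 library left out. The receptors called lower went from 10 to 3 under that same filter, 13 with DESeq2 and 14 with limma-voom. Of all genes in these fits, 24.6%, 16.3% and 17.0% were called lower. Receptors called higher ranged from 0 to 2 with 1 library left out. DESeq2 called 4 death effectors lower. Leaving out a library moved the difference of the summed whole-tissue CPM to between 102.7 and 182.6, from 144.3, and leaving mitochondrial genes out of the totals to 215.5.

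Whether the replicate numbers pair the libraries is not given by the labels. Deviations from the group means correlated at 0.145, 0.212 and -0.0229 for the numbers 1, 2 and 3. Between libraries of unequal number they correlated at -0.261 to 0.176. With 3 libraries per group these values cannot decide whether libraries were paired. With the replicate number as a block, 7 ligands and 12 receptors were called lower, 5 death effectors were lower, and Tnfsf12 was at -0.10. Of all genes, 16.2% were called lower in that fit.

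Depth limits both sides: of the tested members, 6 had fewer than 10 counts in siAATF and 3 in siControl, and 12 of the 41 members could not be tested.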
